A study of Mus musculus with 33 samples.

Results

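The 8 genes described here, of 32285 measured, were listed by name, with earlier results of these data known. They are the TAM receptor tyrosine kinases Mertk, Axl and Tyro3, their ligands Gas6 and Pros1, the bridging protein Mfge8, the engulfment adaptor Elmo1 and the annexin Anxa1. Their unique molecular identifier (UMI) counts were followed across macrophage types, tissues and biotin sorts in single-cell RNA-seq of mouse metastases made with SAMENT, a sortase-based method in which cancer cells hand a biotin-labelled substrate to the cells next to them. After intracardiac injection and overnight labelling, bone, brain, liver and lung were each sorted into biotin-positive (tagged) and biotin-negative (untagged) cells, with 4 samples in each of the 8 groups. A second experiment, labelled IIA, held 6 biotin-positive and 6 biotin-negative bone samples, read by hashtag from 1 pooled library. The sources used here give no strain, age, tumour line or genotype and do not say whether replicates came from separate animals, so p-values measure the spread between samples, which may be technical.

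After filtering, 55366 intracardiac and 22362 IIA cells remained, with 94 to 3505 and 249 to 3480 cells per sample. Totals ran from 482617 to 44834664 UMIs per intracardiac sample and from 2149784 to 27903856 per IIA sample. Of 56724 distinct intracardiac barcodes, 341 occurred in more than 1 library. Cell classes were named from marker genes, and every class name below means resemblance: microglia-like, Kupffer-like, alveolar macrophage-like, border-associated macrophage-like, bone marrow Vcam1 macrophage-like and so on. The marker lists hold none of the 8 genes, which were also kept out of the clustering. Among the 100 leading genes of the cluster were 12 of 12 microglia markers, 10 of 10 Kupffer markers, 9 of 12 Vcam1 macrophage markers, 10 of 12 border-associated markers and, in the main alveolar cluster, 13 of 14. Levels below are scaled counts (CPM, UMIs of the gene scaled to 1e6 UMIs) of the class in 1 sample, and folds and adjusted p-values come from edgeR's quasi-likelihood test over all genes.

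Efferocytosis is the clearance of dying cells by phagocytes. Gas6 and protein S, the product of Pros1, bind phosphatidylserine on the dying cell at one end and a TAM receptor on the phagocyte at the other, while Mfge8 links phosphatidylserine to integrins. Mertk is the receptor best known for steady clearance by resident macrophages and microglia, and Axl is known for a role under inflammation. Elmo1 works with Dock1 to activate Rac and reshape actin around the meal. Anxa1, a phospholipid-binding protein abundant in neutrophils, signals through formyl peptide receptors and is known to favour the end of inflammation.

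In GENCODE vM21 on GRCm38, Mertk lies at chr2:128698956-128802894 on the plus strand, Axl at chr7:25757273-25788705 on the minus strand and Tyro3 at chr2:119797733-119818104 on the plus strand. Gas6 lies at chr8:13465374-13494490 (minus), Pros1 at chr16:62854307-62929346 (plus), Mfge8 at chr7:79133768-79149060 (minus), Elmo1 at chr13:20090596-20608353 (plus) and Anxa1 at chr19:20373428-20390944 (minus). All 8 are annotated as protein coding.

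The promoters of the receptor pair Mertk and Axl are shown because these genes were high in several of the same macrophage classes yet differed in direction between the sorts of brain macrophages (below). Each line holds the 250 bases before the gene's start from the RefSeq table on GRCm38.p6, read 5′ to 3′ on the gene's strand, at chr2:128698665-128698914 for Mertk and chr7:25788734-25788983 for Axl. Capitals mark matches on either strand to GGGCGG, bound by Sp1, or GAGGAA, a PU.1 core.
Mertk: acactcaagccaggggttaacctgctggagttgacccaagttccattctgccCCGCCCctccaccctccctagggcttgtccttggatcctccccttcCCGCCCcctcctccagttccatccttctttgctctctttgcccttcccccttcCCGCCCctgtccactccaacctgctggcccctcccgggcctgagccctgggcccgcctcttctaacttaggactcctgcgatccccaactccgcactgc
Axl: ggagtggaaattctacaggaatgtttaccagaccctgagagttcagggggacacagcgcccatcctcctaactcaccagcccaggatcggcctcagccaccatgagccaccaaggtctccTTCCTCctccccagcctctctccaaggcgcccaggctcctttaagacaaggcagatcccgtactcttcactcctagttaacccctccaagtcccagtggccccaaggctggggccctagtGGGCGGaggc
Mertk held 3 matches to GGGCGG and none to GAGGAA, while Axl held 1 of each. Among 32851 promoters of this length in the table, 32.7% held GGGCGG and 23.3% held GAGGAA, so neither is rare. The nuclear receptor half-site AGGTCA, held by 14.0%, and the AP-1 motif TGAGTCA, held by 4.46%, were found in neither window. These matches describe letters only.

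In tagged samples with at least 20 Mertk UMIs, these came mostly from macrophages, and almost wholly so in lung and brain. Macrophage classes held 97.3 to 99.7% of them in lung (4 samples with at least 20 Mertk UMIs), 95.8 to 98.7% in brain (4), 65.4 to 98.8% in liver (3), 86.6 to 96.9% in bone (2) and 83.7 to 100% in IIA bone (6). In untagged samples the share was lower, with medians of 44.0% in lung, 62.2% in brain, 45.8% in liver and 17.7% in bone, and classical monocytes held a median of 39.5% in lung and 35.8% in bone. Axl followed in tagged lung, where macrophages held 96.9 to 99.5%, but tagged IIA samples also had 2.4 to 49.0% of their Axl UMIs in stromal, endothelial and epithelial or tumour cells.

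Mertk was highest in the resident macrophages of each tissue. In Vcam1 macrophages of bone its level was 587 CPM in biotin-positive replicate 1 and 749 in replicate 2. Microglia had 522, 475 and 386 CPM in biotin-positive replicates 2, 3 and 4, with 25 cells in the thinnest of them. Kupffer cells had 486 CPM in biotin-negative replicate 3 and 546, 456 and 399 in biotin-positive replicates 1 to 3, so the ranges of microglia and Kupffer cells overlapped while Vcam1 macrophages lay above both. Alveolar macrophages had 332, 368, 384 and 329.8 CPM in biotin-positive replicates 1 to 4 and 309.5 in biotin-negative replicate 2, all below the lowest Kupffer sample. Border-associated macrophages of brain followed with 99.9 to 319 CPM (median 252, 7 samples), overlapping alveolar macrophages above and the liver endothelial cells below (172 to 268, median 217 over 6 samples). These levels are descriptions, since the classes were made from the same cells, and samples with fewer than 20 cells of a class were left out.

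Lymphocytes, which should lack Mertk, give its background. Mertk in untagged bone B cells reached at most 1.7 CPM, from 1 UMI of 2276582 over the group. In tagged liver B cells it was 0 in 2 samples and 45.0 CPM in a sample of 21 cells, where it rested on 3 UMIs of 66632, so Mertk levels of that size in samples as thin are within background.

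Axl was highest in the same Vcam1 macrophages of bone, at 1114 and 1535 CPM in the 2 tagged samples, and no other class overlapped them. Alveolar macrophages followed with 428 to 531 CPM (median 508, 5 samples), then Kupffer cells with 276 to 507 (median 379, 4 samples), and the ranges of those classes overlapped. Border-associated macrophages of brain spread from 65.9 to 295 CPM (median 185). Microglia had only 14.9, 51.0 and 24.6 CPM of Axl in the 3 samples in which their Mertk level was 386 to 522. Axl was present outside macrophages in Cd209a dendritic cells, with medians of 82.0 CPM in brain, 41.6 in lung and 38.6 in liver.

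Tyro3, the TAM receptor known chiefly from neurons, was nearly undetected. It gave 54 of 424446465 intracardiac UMIs and 37 of 120801745 IIA UMIs. Tyro3 passed the low-count filter in no comparison, so 7 of the 8 genes could be tested at most.

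**Figure D1:**
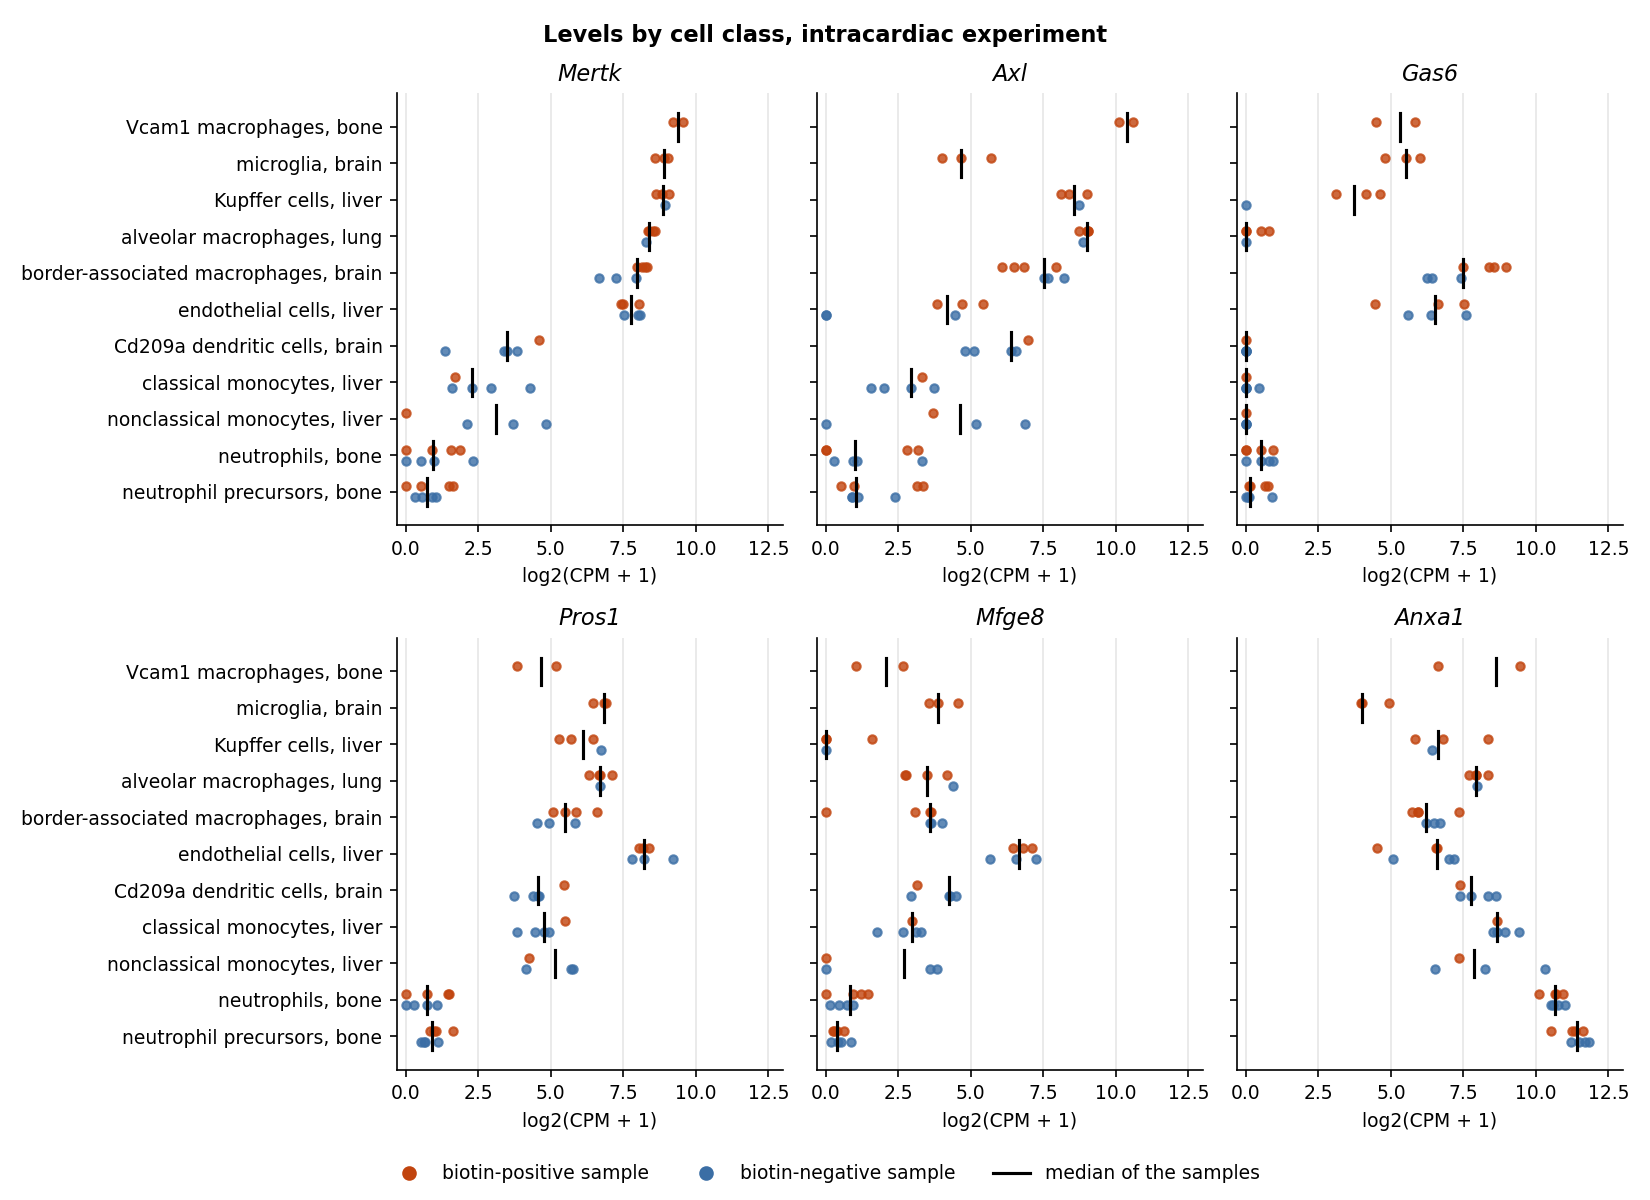
Level of 6 of the genes on a log2(CPM + 1) axis in 11 combinations of class and tissue. Each point is 1 sample with at least 20 cells of the class (orange biotin-positive, blue biotin-negative) and the black bar is the median of the samples; Mertk is high in all resident macrophage rows, whereas Axl is low in microglia and Gas6 is near 0 in alveolar macrophages.

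The balance of the receptors differed between macrophage types, and in border-associated macrophages of brain it also differed widely within the type. Each sample's share of Mertk among its Mertk, Axl and Tyro3 UMIs compares molecules counted once each, so it needs no scaling by gene length. Mertk made up 90.3 to 97.2% of receptor UMIs in microglia (3 samples, 970 UMIs) and 86.2 to 96.2% in liver endothelial cells (5 samples). In Kupffer cells it made up 47.3 to 62.0% (4 samples, 6132 UMIs), in alveolar macrophages 39.4 to 43.7% (5 samples, 29751 UMIs) and in Vcam1 macrophages of bone 32.8 and 34.5%. Cd209a dendritic cells lay at the Axl end, with medians of 10.2% in brain and 8.5% in liver. Alveolar macrophages were the tightest of the types with 4 or more samples, and their range met neither that of Kupffer cells above nor that of Vcam1 macrophages below.

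Border-associated macrophages of brain spread most widely within a class, and by sort. Mertk was 45.4% of receptor UMIs (exact 95% binomial interval 38.7 to 52.3%) in biotin-negative replicate 2, 33.3% (23.2 to 44.7%) in replicate 3 and 45.0% (32.1 to 58.4%) in replicate 4. In the biotin-positive samples it was 81.0% (75.1 to 86.0%), 73.1% (70.2 to 75.8%), 50.7% (38.9 to 62.4%) and 78.4% (69.6 to 85.6%) in replicates 1 to 4. All 4 tagged samples were above all 3 untagged ones, with replicate 3 of the tagged sort closest. Intervals cover counting error only.

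**Figure D2:**
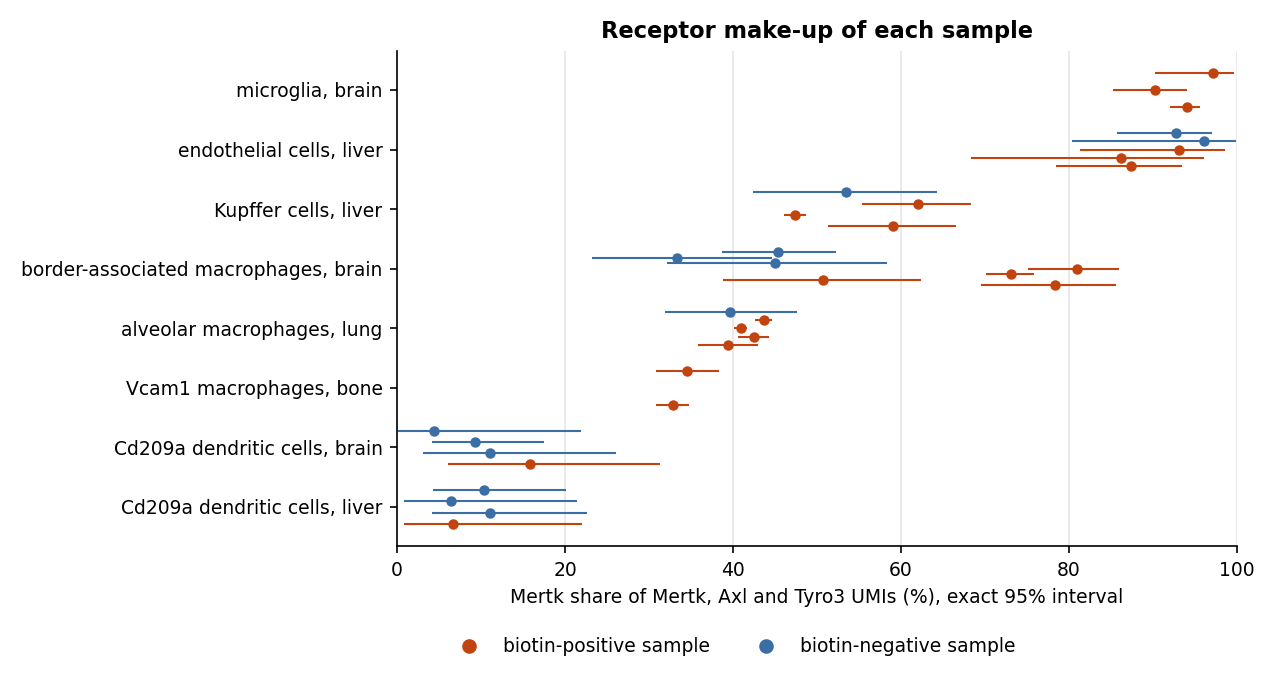
Mertk as a percentage of the Mertk, Axl and Tyro3 UMIs of 1 sample, for 8 combinations of class and tissue. Points are samples (orange biotin-positive, blue biotin-negative) and bars are exact 95% binomial intervals; microglia sit above 90%, alveolar macrophages near 40%, and border-associated macrophages of brain run from 33.3 to 81.0%.

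The ligands had other sources. Gas6 was highest in the liver epithelial or tumour class, at 1281 CPM in its 1 sample of 61 cells, and among classes with 2 or more samples in border-associated macrophages of brain, with 74.0 to 504 CPM (median 179). Endothelial cells of brain and liver had medians of 112 and 89.9 CPM of Gas6. Microglia had 26.8 to 62.6 CPM, Kupffer cells 0 to 23.7 and alveolar macrophages 0 to 0.7, so the class with the most receptor UMIs in lung held almost no Gas6. Pros1 was highest in liver endothelial cells, at 223 to 594 CPM (median 293, 6 samples). Among macrophages, Pros1 had medians of 112 CPM in microglia, 103 in alveolar macrophages, 68.9 in Kupffer cells and 44.1 in border-associated macrophages of brain, and the microglial and alveolar ranges overlapped. Mfge8 was low in every resident macrophage class, with 0 to 2.0 CPM in Kupffer cells, 5.6 to 19.6 in alveolar macrophages and 10.7 to 22.4 in microglia. Mfge8 was higher in endothelial cells, with medians of 101 CPM in liver and 74.4 in brain, and reached 652 CPM in the 1 lung sample of an unnamed class led by Mcpt8, Cpa3 and Gata2.

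Elmo1 and Anxa1 lay outside the receptor pattern. Elmo1 was highest in microglia, at 191 to 261 CPM (3 samples), above the lung B cells next in order (79.2 to 177) without overlap. Anxa1 was highest in neutrophil precursors, with medians of 3772 CPM in liver, 3240.3 in brain and 2733 in bone. Bone neutrophils had a median of 1622 CPM of Anxa1 and brain nonclassical monocytes 1499. Alveolar macrophages had 205 to 322 CPM, and microglia, at 14.6 to 29.5, had the least Anxa1 of the resident macrophage classes.

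In IIA bone, levels are set beside each other only within that experiment, because its counts came from another Cell Ranger version (7.1.0 against 6.1.2) and their scale differed by gene, with Elmo1 at 378 CPM over all IIA cells and 59.4 over all intracardiac ones. In the tagged sort Vcam1 macrophages had the highest Mertk, at 1054 and 383 CPM in biotin-positive replicates 3 and 5, beside 32.4 in biotin-negative replicate 4, from 92 cells in all. At a clustering resolution of 2.0 this cluster held 77 cells in place of 155 and its median Mertk was 1331 CPM. Axl in the same 3 samples was 184 to 955 CPM. Stromal cells held Pros1 at 125 to 153 CPM, Axl at 93.0 to 171, Mfge8 at 93.0 to 117 and Gas6 at 16.8 to 36.3, but Mertk at only 10.1 to 21.0.

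Summed over all cells of a sample, Mertk and Axl were higher in the biotin-positive sort of lung and of IIA bone, Gas6 in brain, and Pros1 in lung and brain. Mertk in IIA bone and Gas6 in brain entered their tests through the tagged samples (below). Such sums join the number of macrophages with the RNA of each: fewer cells of a type and less RNA per cell cannot be told apart in them. Macrophage classes were 27.0 to 91.5% of tagged lung cells against 1.45 to 3.41% of untagged ones, and 36.8 to 84.6% against 0.93 to 8.47% in brain. In IIA bone they were 5.51 to 52.2% against 1.36 to 4.94%. The part of these shares in the changes below was not tested in the sums; values within classes follow.

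In lung, Mertk over all cells was 2.68, 17.7, 7.20 and 2.77 CPM in untagged replicates 1 to 4 and 190.2, 319.5, 176 and 77.6 CPM in tagged replicates 1 to 4. Axl was 2.70 to 26.3 CPM untagged and 115 to 435 tagged. Neither gene's groups overlapped, with folds of 19.6 for Mertk (log2 4.29 ± 0.73 SE, adjusted p = 0.0063) and 17.5 for Axl (4.13 ± 0.73, adjusted p = 0.0070). Pros1 went from 7.45 to 11.3 CPM untagged to 29.7 to 84.0 tagged, a 4.82-fold rise (adjusted p = 0.0031), and Mfge8 rose 1.96-fold (adjusted p = 0.0149). Elmo1 fell by 0.50 on the log2 scale (adjusted p = 0.0383), with overlapping groups of 54.8 to 83.9 CPM untagged and 55.0 to 59.7 tagged, and that call was lost whichever sample was left out (adjusted p 0.0526 to 0.134). Gas6 was not called by edgeR (2.50 ± 0.89, adjusted p = 0.0806; 0.0275 without untagged replicate 2) but was by DESeq2 (2.43, adjusted p = 0.034), and with the replicate number as a block its adjusted p was 0.0152, though the numbers do not pair these samples. In all, 5 of 7 tested members were called, against 18.3% of all genes tested.

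In brain, Gas6 over all cells was 1.27, 5.93, 4.16 and 1.26 CPM untagged and 77.2, 252, 30.1 and 53.7 tagged. The fitted fold was 27.8 (log2 4.80 ± 0.83), and all tagged samples were above all untagged ones. The untagged samples held 22 to 45 Gas6 UMIs each, and Gas6 reached the low-count filter's minimum in 2 of 4 of them and in all 4 tagged samples. Gas6 thus entered the test through its tagged samples, and its call is not given as a result. Macrophages held 89.8 to 99.5% of the tagged brain Gas6 UMIs. Pros1 rose 3.22-fold (adjusted p = 0.0333), from 5.51 to 13.4 CPM to 23.4 to 53.2. Mertk, at 1.27, 24.8, 12.3 and 3.17 CPM untagged and 51.1, 257, 166 and 173 tagged, did not overlap either but missed the threshold (3.65 ± 0.90, adjusted p = 0.0647), which it passed in DESeq2 (0.0003) and in edgeR without the low-count filter (0.0361). Axl overlapped, at 3.21 to 34.5 CPM untagged and 14.5 to 102 tagged (1.22 ± 0.86, adjusted p = 0.447). Thus 2 of 7 members were called, Gas6 and Pros1, against 3.06% of all genes. In the fit with the replicate block, which these samples support, 4 members passed, against 6.89% of all genes. The adjusted p was 0.0092 for Mertk, 0.0125 for Axl and 0.0215 for Pros1, and Gas6 was again tested through its tagged samples. Without the block, the Gas6 call ended when untagged replicate 1, 3 or 4 or tagged replicate 4 was left out (adjusted p 0.0569 to 0.114), and the Pros1 call when any sample but untagged replicate 2 or tagged replicate 1 was (0.0508 to 0.130). Leaving out either of those 2 samples brought Mertk past the threshold (adjusted p 0.0404 and 0.0411).

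In liver and bone no member was called over all cells by edgeR (0 of 7 in each, with 6 and 3 at an unadjusted p under 0.05), as for all genes (0% called in either tissue). DESeq2 called 1 member in each, Gas6 in bone and Mertk in liver, against 0.424% and 3.66% of all genes. The untagged bone samples held 1 to 17 Gas6 UMIs each, and Gas6 entered that test through its tagged samples, so its call is no result. Liver Mertk was 3.48, 28.7, 16.0 and 5.17 CPM untagged and 46.7, 399.8, 61.4 and 14.5 tagged, and its highest value, in tagged replicate 2, came from the sample in which 84.1% of cells were macrophages. Liver Gas6 was 0.86 to 3.29 CPM untagged and 256, 20.0, 16.7 and 6.22 tagged (log2 5.13 ± 1.18, adjusted p = 0.141), with no overlap. Its sources differed by sample, with macrophages holding 2.07 to 96.4% of tagged liver Gas6 UMIs and endothelial, stromal and epithelial or tumour cells 1.43 to 97.5%. In bone, Mertk reached 16.4 and 98.6 CPM in tagged replicates 1 and 2 and 1.12 and 0.58 in replicates 3 and 4, beside 0.62 to 5.12 untagged (3.51 ± 1.42, adjusted p = 0.615). Macrophages were 11.8, 39.7, 1.61 and 0.578% of cells in those tagged bone samples, in the same order as Mertk.

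In IIA bone, Mertk was 0.24 to 1.44 CPM in the 6 untagged samples and 11.5, 74.2, 52.8, 24.7, 3.51 and 11.6 CPM in tagged replicates 1 to 6. The groups did not overlap, and the fitted fold was 28.7 (log2 4.84 ± 0.76). The untagged samples held 4 to 14 Mertk UMIs each, and 2 of 6 reached the low-count filter's minimum of 1.17 CPM. Mertk thus entered the test through its tagged samples, and its call is not given as a result. Gas6 was 0.069 to 0.498 CPM untagged, from 12 UMIs in all, and 1.56 to 37.5 tagged; it passed that filter only through its tagged samples, so its call is not given as a result. In the 3 tagged samples with at least 20 Gas6 UMIs, macrophages held 73.4 to 90.5% of them. Axl rose 5.91-fold (adjusted p = 0.0021) with overlapping groups of 2.56 to 9.65 and 6.34 to 65.6 CPM. Anxa1 fell by 1.78 on the log2 scale, from 1315 to 1839 CPM untagged to 333 to 698 tagged. Neutrophils and their precursors held 85.6 to 90.4% of Anxa1 UMIs in untagged and 28.5 to 81.6% in tagged samples. Among IIA neutrophil precursors alone, Anxa1 was also lower in tagged samples, at 304.1 to 1036 CPM against 2159 to 2557, which is given without a test. Pros1 was not called (0.57 ± 0.33, adjusted p = 0.169; 0.0212 without tagged replicate 5). The 4 of 7 members called, Mertk and Gas6 among them, stand against 50.2% of all genes called.

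**Figure D3:**
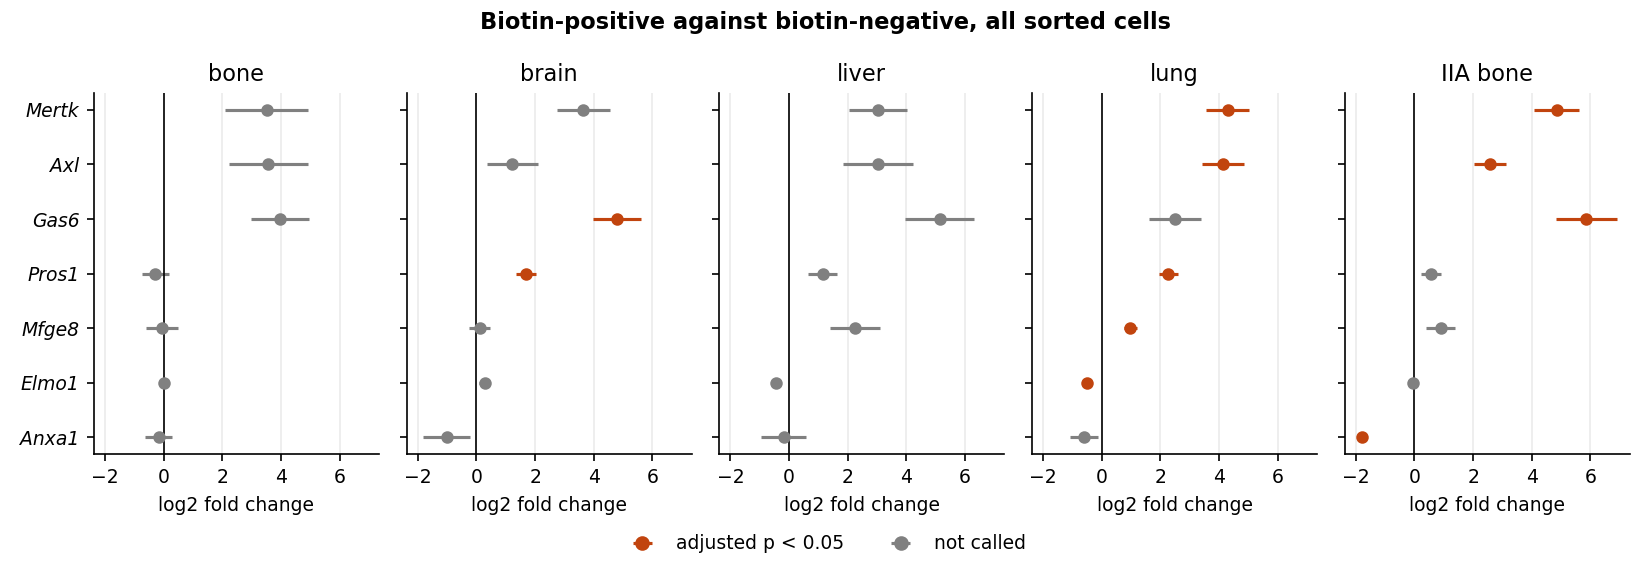
Log2 fold change of biotin-positive over biotin-negative samples, with its standard error, for 7 of the genes summed over all cells of bone, brain, liver, lung and IIA bone. Orange points passed an adjusted p of 0.05 and grey ones did not. Mertk and Axl are orange in lung and IIA bone, Gas6 in brain and IIA bone, and no point is orange in bone or liver. Mertk and Gas6 in IIA bone and Gas6 in brain passed the low-count filter through their tagged samples, so their calls are no result.

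Within brain border-associated macrophages, cells of the meninges and perivascular spaces, tagged and untagged samples differed in opposite directions for the receptors. Mertk was 90.1, 246, 99.9 and 151 CPM in untagged replicates 1 to 4 and 281, 303.7, 252 and 319 CPM in tagged ones, so every tagged sample was above every untagged one. Axl was 270.2, 295, 199.9 and 185 CPM untagged and 65.9, 112, 245 and 88.1 tagged, lower in 3 of 4 same-numbered pairs. Gas6 was 234, 84.3, 74.0 and 168 CPM untagged and 504, 334, 179 and 378 tagged, higher in 4 of 4 pairs. Pros1 overlapped widely, at 22.2 to 56.0 CPM untagged and 33.1 to 94.8 tagged.

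In the unblocked edgeR fit none of the 6 border-associated macrophage members tested was called (3 at an unadjusted p under 0.05), against 0.246% of all genes, and DESeq2 called 1, against 6.92%. The log2 changes were 0.76 ± 0.29 for Mertk (adjusted p = 0.204), -1.09 ± 0.39 for Axl (0.186) and 1.34 ± 0.38 for Gas6 (0.110). With the replicate block, which the samples support here, 3 of 6 passed: Mertk at 0.80 (adjusted p = 0.0488), Axl at -1.13 (0.0401) and Gas6 at 1.31 (0.0050), against 8.65% of all genes called in that fit. Without tagged replicate 3, the sample of 42 cells with the highest tagged Axl, Axl and Gas6 passed unblocked too (adjusted p 0.0114 and 0.0246). The tagged and untagged cells of this class also differed in their markers: the border-associated macrophage list summed to 5669 to 13763 CPM tagged against 2098 to 4648 untagged, the macrophage list to 54465 to 77232 against 40751 to 56208, and the microglia list to 701 to 1744 against 1290 to 3009, with Sall1 at 0 in the untagged samples. All 12 border-associated markers were detected in both sorts; their part in the receptor values was not tested.

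**Figure D4:**
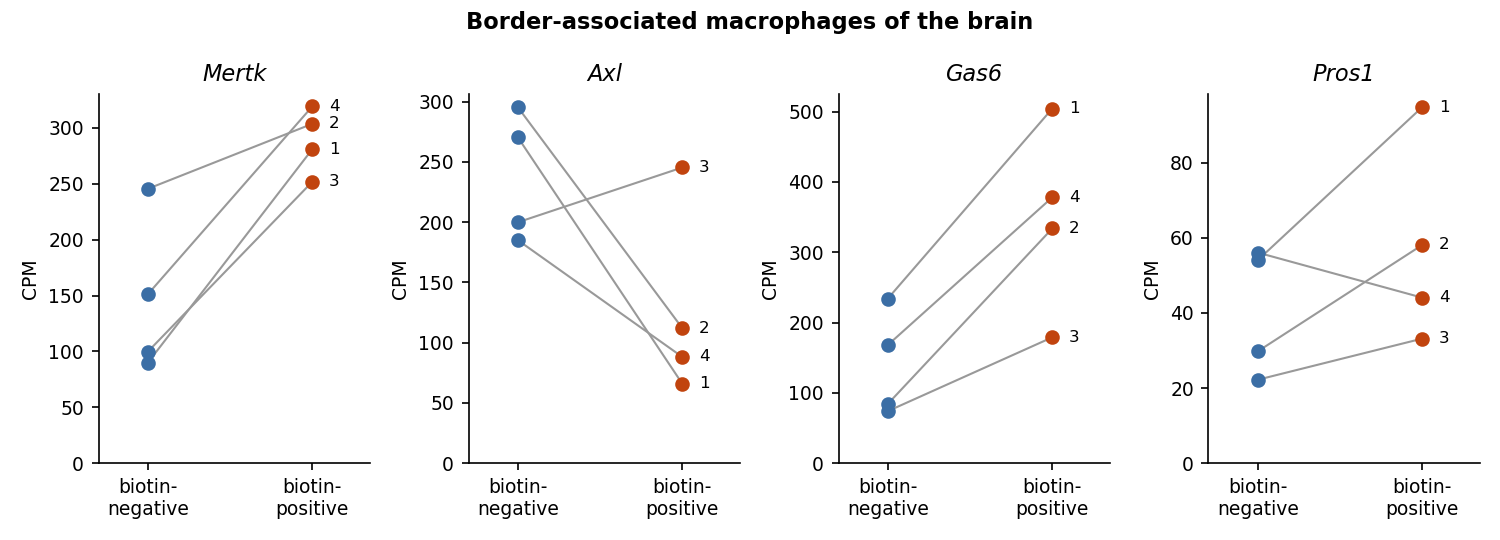
Mertk, Axl, Gas6 and Pros1 in border-associated macrophages of brain, in CPM from 0, with 1 point per sample and lines joining samples of the same replicate number from biotin-negative to biotin-positive. Gas6 and Mertk lines end higher in 4 of 4 pairs and Axl lines end lower in all but replicate 3.

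Cells named border-associated macrophages outside brain came from 1 tagged sample each, replicate 1 of bone, liver and lung, with 27, 60 and 21 cells. Their Mertk was 188, 190.5 and 189 CPM, their Axl 377, 292 and 225 and their Gas6 182, 69.3 and 98.8. Axl thus exceeded Mertk in all 3, as it did in the untagged brain samples, and no comparison of sorts could be made there.

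Kupffer cells, the liver's resident macrophages, did not differ detectably by sort. Mertk was 402 and 486 CPM in untagged replicates 2 and 3 and 546, 456 and 399 in tagged replicates 1 to 3 (log2 0.08 ± 0.31), and Axl was 461 and 423 against 334, 507 and 276 (-0.23 ± 0.33). No member was called by edgeR (0 of 5, none at an unadjusted p under 0.05, none by DESeq2), with 0% of all genes called. With 2 untagged samples, the errors leave room for changes of either sign.

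Pooling all macrophage classes of lung, Mertk was 38.7, 154, 27.4 and 22.0 CPM untagged and 251, 333, 349 and 177 tagged. It rose by 1.93 ± 0.46 on the log2 scale (adjusted p = 0.0248), Axl by 1.73 ± 0.50 (0.0483) and Pros1 by 1.34 ± 0.37 (0.0391), each with groups that did not overlap. These 3 of 6 members stand against 12.2% of all genes. The alveolar macrophage list summed to 14708 to 30164 CPM in tagged and 2752 to 11598 in untagged lung macrophages, and its part in the rise was not tested. The Mertk call ended without untagged replicate 1, 3 or 4 or tagged replicate 2 or 3 (adjusted p 0.0562 to 0.0795). The Axl and Pros1 calls ended without any of those or without tagged replicate 1 (0.0595 to 0.115).

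Pooled brain macrophages went the other way for Axl. It was 206, 259, 184 and 136 CPM in untagged replicates 1 to 4 and 58.2, 113, 105 and 32.8 in tagged ones, with every tagged sample below every untagged one (-1.45 ± 0.41, adjusted p = 0.173; with the block, which these samples support, -1.54 and 0.0115). Mertk in the same samples was 85.7 to 242 CPM untagged and 279.7 to 406 tagged. No member was called by edgeR without the block (0 of 6, 4 at an unadjusted p under 0.05), against 0.0678% of all genes; DESeq2 called 1, against 2.78%, and the blocked fit 1, against 4.72%. The microglia list, whose cells have little Axl, summed to 1298 to 13741 CPM tagged and 1495 to 5467 untagged; its part was not tested in the pooled class, while the border-associated class above gives the values without the microglia cluster. In liver macrophages 0 of 6 members were called (3 at an unadjusted p under 0.05), against 0% of genes, and 1 by DESeq2, against 1.79%, with Mertk at 20.3 to 114 CPM untagged and 172 to 442 tagged (1.52 ± 0.42, adjusted p = 0.159).

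Whether the sort's effect on macrophages differed between tissues was tested by an interaction over brain, liver and lung, a test added after the values were seen. For Axl the brain effect was lower than that of the other tissues by -3.05 ± 0.72 on the log2 scale (unadjusted p = 0.0003, adjusted p = 0.0883). It passed in DESeq2 (-3.09, adjusted p = 0.0096; 0.772% of genes called) and with the block (-3.18, 0.0053; 0.352%), though the replicate numbers do not pair the lung macrophages. It also passed in edgeR without the low-count filter (-3.08, adjusted p = 0.0038), without liver untagged replicate 1 (0.0363) or without lung untagged replicate 2 (0.0358). With all samples, no member was called in brain (0 of 7, 1 unadjusted; 0.0769% of genes), liver (0 of 7, 0 unadjusted, 0 by DESeq2; 0.011%) or lung (0 of 7, 2 unadjusted, 0 by DESeq2; 1.18%). In lung, Axl stood at 1.72 ± 0.71 (adjusted p = 0.245), and at 2.26 with the block (0.0181; 3.4% of genes called).

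In IIA bone, the C1q cluster held the macrophage markers C1qa, C1qb and C1qc among its leading genes. Its Mertk was 7.0, 9.1, 0, 34.5, 0 and 0 CPM in untagged replicates 1 to 6 and 76.4, 100.4, 93.1, 68.9 and 133 CPM in tagged replicates 1, 2, 3, 5 and 6. The untagged values rest on 9 Mertk UMIs in all, with 3 samples at 0, and 1 of 6 untagged samples reached the low-count filter's minimum of 23.9 CPM against 5 of 5 tagged ones, so Mertk entered the test through its tagged samples. The groups did not overlap, and the fitted difference was 4.15 ± 0.46 on the log2 scale, whose size depends on those few counts. Axl was 0 to 51.8 CPM untagged and 33.1 to 114 tagged, with overlapping groups and a fitted fold of 4.43 (2.15 ± 0.49). It reached that minimum in 2 of 6 untagged samples, so Axl too entered the test through its tagged samples. Gas6 had 0 of 1796490 untagged UMIs and 14.3, 64.2, 70.1, 119 and 75.8 CPM in the tagged samples; against a floor of 3 counts over the untagged group it was at least 40.7-fold higher, though Gas6 did not pass the low-count filter and has no test here. Of 4 members tested, 2 were called, Mertk and Axl, against 24.7% of all genes, but both entered through the tagged samples, so these calls are not given as results.

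The same cluster differed between the sorts in what it held. The macrophage list summed to 10545 to 23010 CPM tagged against 1639 to 3426 untagged, the bone marrow Vcam1 macrophage list to 786 to 3731 against 202 to 488, and the classical monocyte list to 3191 to 6363 against 9143 to 14813. At a clustering resolution of 2.0, 294 of the 372 untagged cells and 24 of the 715 tagged cells fell into a classical monocyte cluster. In the 75 untagged and 690 tagged cells that stayed macrophages, Mertk was 27.9 CPM in untagged replicate 2 (47 cells) and 0 in replicate 3 (14 cells), the 2 untagged samples with at least 10 cells, and 79.2 to 139 CPM in tagged samples. The macrophage list summed to 6197 and 5148 CPM in those 2 untagged samples and to 11082 to 23916 in the tagged ones with at least 10 cells, so these cells still differed in what they held. The Mertk difference was then 2.17 ± 0.54 (adjusted p = 0.0635) and that of Axl 1.86 ± 0.85 (0.288), so neither call held. In the pooled macrophage classes of IIA bone the fitted difference was 5.01 ± 0.69 for Mertk and 3.11 ± 0.80 for Axl, with 12 untagged Mertk UMIs in all. Both were called, 2 of 5 members against 19.8% of genes, but both entered through the tagged samples, so these calls are not given as results. They were also lost at that resolution, with Mertk at 3.11 (adjusted p = 0.116) and Axl at 3.06 (0.246).

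**Figure D5:**
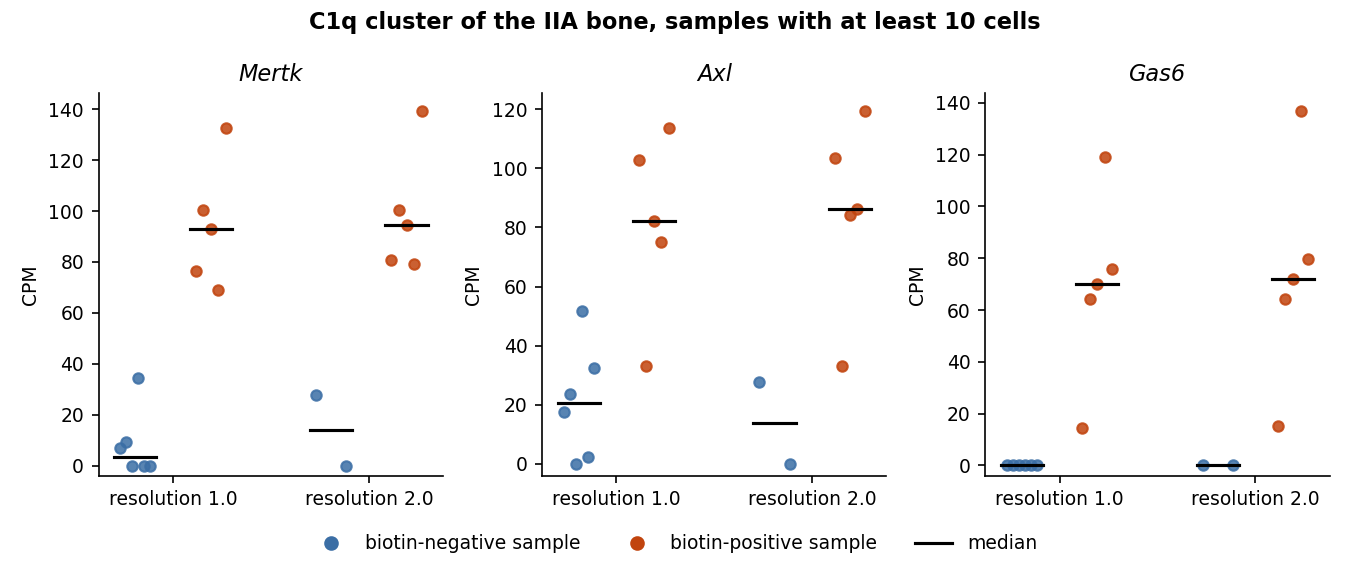
Mertk, Axl and Gas6 (CPM) in the macrophages of the C1q cluster of IIA bone by sort, at clustering resolutions 1.0 and 2.0, with 1 point per sample of at least 10 cells and a bar at the median. At 1.0 the 5 tagged samples lie above the 6 untagged ones in Mertk and Gas6; at 2.0 only 2 untagged samples remain.

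Classical monocytes, which give rise to many tumour macrophages, had none of the members called. By edgeR, 0 of 4 passed in bone (1 at an unadjusted p under 0.05), 0 of 6 in liver, 0 of 4 in lung and 0 of 4 in IIA bone (none unadjusted in these), with no call by DESeq2 and with 0%, 0%, 0% and 0.103% of all genes called. Untagged monocytes of each tissue against the others gave 0 of 6 members in bone, brain, liver and lung (none unadjusted, none by DESeq2), against 0.076%, 0%, 0% and 0.109% of genes. That fit has no replicate term, and Mertk in these monocytes followed the replicate number, at 1.5 to 2.1 CPM in replicate 1 and 18.5 to 29.9 in replicate 2 of the 4 tissues. With the replicate block none of the members was called either. The difference of the sort's effect between tissues gave 0 of 6 in bone (1 unadjusted), liver and lung (none unadjusted), none by DESeq2 and 0% of genes in each.

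Of the wider pathway, 5 lists are given by their counts, to be read against the share of all genes called in each comparison: 18.3% in lung, 3.06% in brain and 50.2% in IIA bone over all cells, 24.7% in the C1q cluster and 12.2% in pooled lung macrophages. A list count near that share is no result about the list, which holds for most counts in IIA bone. In brain, the 339 genes called over all cells became 3, 61 or 6 without untagged replicate 1, 3 or 4 and 7 without tagged replicate 4, so the brain list calls below rest on those samples. In the C1q cluster, the 1444 genes called became 116 at resolution 2.0, where the lists were not read again.

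Other recognition receptors and bridges are a list of 22 genes around the same step. In lung over all cells 6 of 19 tested rose, among them Cd36, a scavenger receptor (log2 3.37 ± 0.55, adjusted p = 0.0053), C1qc at 2.07 and C1qa at 2.06, and the integrin Itgb3 fell by 2.32. The list's median was 1.03 beside -0.04 for all genes. In brain 4 of 18 rose, led by C1qc (3.93 ± 0.84, adjusted p = 0.0429), C1qa at 3.85 and C1qb at 3.73. In IIA bone 8 of 17 rose, led by C1qa (4.75 ± 0.84, adjusted p = 0.0006), and 3 fell: Havcr1, a phosphatidylserine receptor also called Tim-1 (-3.69), and the myeloid receptors Cd300lb (-1.46) and Cd300lf (-1.40). In the C1q cluster 10 of 14 rose and 3 fell, with C1qc at 4.52 ± 0.54, C1qa at 4.14 and C1qb at 3.93 above and Cd300lf, Thbs1 and Scarb1 below, the last at -0.87. C1qa, C1qb and C1qc also stand in the macrophage marker list, which moved with the sort in those samples. Within pooled lung macrophages none of 15 rose and 2 fell, Thbs1 (-2.67) and the scavenger receptor Msr1 (-1.79).

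Of 20 phagosome processing and lipid efflux genes, 7 rose over all cells of lung, none fell and 13 were not called, with a list median of 0.40 beside -0.04 for all genes. Those that rose were led by the lipid-sensing receptor Pparg (4.51 ± 0.42, adjusted p = 0.0009), the cholesterol exporter Abcg1 (3.36 ± 0.44, adjusted p = 0.0025) and the lysosomal protease Ctsd (2.44). Within pooled lung macrophages 5 of 20 rose, 2 fell and 13 were not called (list median -0.03), with Pparg at 2.94 ± 0.36 (adjusted p = 0.0046), Abcg1 at 2.26 and Ctsd at 1.49 above and Apoe (-1.56) and Ctsl (-1.28) below. In the C1q cluster 9 of 18 rose and none fell, led by the lipid carrier Apoe (3.66 ± 0.39), the sterol receptor Nr1h3 (2.67) and Ctsd (2.64). Over all cells of IIA bone 6 of 20 rose and 6 fell, with Nr1h3 and Abca1 both at 2.99 and Ctsl at 2.51 above, and Rubcn (-0.70), Map1lc3b (-0.68) and Nr1h2 (-0.67) below. None of 20 was called in brain over all cells.

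Engulfment machinery, the 15 genes that work beside Elmo1, had few members called outside IIA bone. In lung 0 of 13 rose and Dock2 fell (-0.49), in brain none of 13 was called, and in IIA bone 2 of 15 rose, Dock1 (0.92) and Vav3 (0.36), while 7 fell, led by the haematopoietic GTPase Rac2 (-0.91), Dock5 (-0.87) and Dock2 (-0.65). In the C1q cluster Vav3 (-0.75) and Was (-0.59) fell and none of 13 rose. Within pooled lung macrophages Dock5 was the 1 gene of 13 called (1.09).

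Among 12 regulators of TAM receptors and annexins, Vkorc1, which recycles the vitamin K that Gas6 and protein S need for their phosphatidylserine-binding domain, rose in lung (1.12), brain (1.20), IIA bone (1.34), the C1q cluster (1.27) and pooled lung macrophages (1.31). In lung 3 of 11 rose, also Anxa5 (1.27) and Adam17 (0.67), a protease known to shed Mertk, and Socs1 fell (-1.52). In brain 1 of 11 rose and Lgals3 fell (-1.62). In IIA bone 2 of 12 rose, also Ggcx (0.59), the carboxylase that uses that vitamin K, and 3 fell: the Anxa1 receptors Fpr2 (-2.24) and Fpr1 (-1.41), and Anxa2 (-0.84). In the C1q cluster 2 of 8 rose, also Anxa5 (0.77), and Fpr2 fell (-0.88). In pooled lung macrophages 1 of 9 rose and Socs3 fell (-2.12).

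Of 11 find-me and do-not-eat-me genes, 3 rose in lung over all cells and none fell: Sirpa, the receptor for Cd47 (1.56), and the nucleotide receptors P2ry2 (1.37) and P2ry6 (1.07). In brain P2ry6 rose (2.30). In IIA bone P2ry2 rose (1.30) and 2 fell, with Cd24a at -1.04. In the C1q cluster P2ry6 (1.98), Cx3cr1 (1.22) and Sirpa (0.59) rose and Gpr132 (-1.62) and Cd24a (-1.09) fell, 3 and 2 of 7. In pooled lung macrophages 2 of 8 rose, P2ry2 (1.56) and Sirpa (1.09). Border-associated macrophages of brain had no call in any of the 5 lists in the unblocked fit; the lists were not read in the blocked fit, in which 317 genes were called.

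Across 96 intracardiac profiles of cluster and tissue with at least 50 cells, and 7952 genes, the genes most like Mertk were Cttnbp2nl (Pearson r of log2(CPM + 1) 0.861), Lpl (0.858) and Acp2 (0.838). Mertk's own correlation was 0.815 with Axl, 0.776 with Pros1, 0.633 with Gas6, 0.316 with Mfge8, 0.014 with Elmo1 and -0.167 with Anxa1. Axl was most like Lpl (0.831), Mrc1 (0.830) and Sdc3 (0.828), so Lpl, a lipase, stood near both receptors. Gas6 was most like Pmp22 (0.841), Ccn1 (0.837) and Kitl (0.833), and Pros1 most like Ctnnd1 (0.882), Laptm4a (0.876) and Dusp3 (0.858). Mfge8 was most like Mprip (0.814), Ccdc85b (0.811) and Tpm1 (0.809), and Anxa1 most like Trem3 (0.910), Wfdc21 (0.892) and B230208H11Rik (0.889). Profiles share libraries and cell types, so these values only describe likeness.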

How the data were processed

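The deposited values are raw UMI counts per gene and cell, written by the authors with Cell Ranger (6.1.2 for the intracardiac matrices, 7.1.0 for the pooled IIA matrix, per the file headers). The build is mm10, per the submitters' processing notes. Gene annotation and intron setting: not given in the sources used here. IIA cells were assigned to samples by the hashtag with at least 10 counts and 3 times the next, and hashtags were matched to samples by the number in their names.

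Cells with at least 500 UMIs, 200 genes and at most 15% mitochondrial UMIs were kept. No cell was removed as a doublet; an alternative left out the top 5% of doublet scores in each sample. Cells were clustered with scanpy 1.11.5 (2000 variable genes without the 8 members, 30 components, 15 neighbours, Leiden resolution 1) and named from 28 marker lists, with naming thresholds set after the data were seen. Counts were summed per sample and class, where at least 10 cells were present, and tested with edgeR 4.0.16 (filterByExpr, TMM, quasi-likelihood, Benjamini-Hochberg adjusted p under 0.05); DESeq2 1.42.0 was an alternative. Levels used samples with at least 20 cells. Each fit used the groups compared; interactions used all intracardiac groups with at least 2 samples, bone adding only to the estimate of spread. Brain monocytes and bone macrophages were not fitted by sort, nor the brain monocyte interaction, with fewer than 2 samples in an arm. On simulated counts, 73% of 4-fold and 14% of 2-fold changes were recovered for lung all cells, 79% and 30% for border-associated macrophages, and 88% and 53% for the C1q cluster.

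The text names the 8 members, up to 3 higher and 3 lower called genes of each of 5 pathway lists per comparison, and the 3 genes most like 6 of the members. The members, lists and comparisons were chosen with earlier results of these data known; the comparisons within single macrophage classes and the macrophage interaction were added after the data were seen. Replicate numbers come from the labels, and were taken to pair samples where at least 3 same-numbered pairs existed and every pair's deviations from the group means correlated above 0.1. This held for all cells of bone, brain and liver, classical monocytes of lung, macrophages of brain and liver, and border-associated macrophages of brain. 1 macrophage class, counted in the pooled macrophages, is not reported here by itself. The median log2 change of all genes stayed within 0.1 of 0 in every fit.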

Additional observations from a re-analysis of the deposited data

Results flagged for a closer look

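Of 69 groups of 4 to 10 samples examined, 10 had a highest sample set apart from the rest by Dixon's criterion, and chance gives about 1 in 20. Over all cells, tagged replicate 2 stood apart in bone Mertk (98.6 CPM), liver Mertk (399.8 CPM) and liver Axl (435 CPM), the samples with the highest macrophage share of their group (39.7% in bone, 84.1% in liver). Tagged liver replicate 1 stood apart in Gas6 (256 CPM), and untagged IIA replicate 3 in Gas6 (0.498 CPM). Within macrophages, untagged lung replicate 2 stood apart in Mertk (154 CPM). Untagged IIA replicate 4 stood apart in Mertk (33.2 CPM) and Axl (133 CPM) of pooled macrophages and in Mertk of the C1q cluster (34.5 CPM). Tagged IIA replicate 6 stood apart in Elmo1 of the C1q cluster (568.1 CPM). The causes were not tested.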

How the results depend on the processing

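Of the counts of members called and the medians of the class highest in Mertk and in Axl, 190 stayed the same under the alternatives and 18 moved, leaving out 1 sample aside, where a count within 1.5 times its value and a median within the range of its samples are taken as the same. Leaving out 1 sample moved a further 15 counts, given below as ranges. Over all macrophage classes, the medians of Mertk and Axl stayed within the range of their samples in 29 of 38 cases at resolution 2.0, in 38 of 40 without high doublet scores and in 28 of 28 with at least 50 cells per sample. Where edgeR called none, DESeq2 called 1 member in all cells of bone and of liver, macrophages of brain and of liver, border-associated macrophages and the macrophage interaction of brain. In all cells of bone it was Gas6, which entered through its tagged samples. Without the low-count filter 3 were called in liver macrophages, 2 in border-associated macrophages and 1 in the brain interaction. With the replicate block 4 were called in all cells of brain (2 without, with Gas6 tested through its tagged samples in both). It called 3 in border-associated macrophages and 1 each in brain macrophages and the brain and lung interactions (0 without). In all cells of lung the numbers do not pair the samples. At Leiden resolution 2.0, 0 members were called in IIA macrophages and in the C1q cluster (2 each at 1.0), the C1q cluster's uncalled changes turned for Elmo1 (0.43) and Anxa1 (0.64), and the Vcam1 macrophage medians of IIA bone moved to 1331 CPM for Mertk and 1160 for Axl. Kupffer Mertk, near 0 throughout, was -0.019 with the block and -0.029 to 0.26 with 1 sample left out. Leaving out 1 sample gave 0 to 3 called members in all cells of brain and in lung macrophages, 0 to 2 in border-associated macrophages and 0 to 1 in the brain interaction. It gave 4 to 5 in all cells of lung and of IIA bone and 2 to 3 in IIA macrophages and the C1q cluster. In IIA macrophages and the C1q cluster the third was Gas6. Like Mertk and Axl there, it passed the low-count filter only through its tagged samples, so those calls are no result. Beyond 1-sample exclusions, values of single members were the same side and direction in 246 cases, stronger in 22, weaker in 7 and reversed in 3. Causes were not tested. Samples with few macrophages limit depth: bone macrophages by sort, with 1 untagged sample, were not fitted.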

Other observations

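In untagged classical monocytes Mertk stood in the same order of replicate numbers in all 4 intracardiac tissues, a pattern noticed in the data. Replicates 2, 3, 4 and 1 had 29.9, 13.1, 6.5 and 1.5 CPM in brain, 25.3, 12.8, 4.9 and 1.8 in lung, 20.3, 7.0, 2.1 and 1.7 in bone, and 18.5, 6.7, 3.8 and 2.1 in liver. These rest on 2 to 69 Mertk UMIs per sample. Neutrophils of the same untagged replicate 2 samples had 3.0 to 4.0 CPM of Mertk. Axl in these monocytes was also highest in replicate 2 in each tissue (8.1 to 12.3 CPM), whereas Anxa1 was highest in replicate 4 in each (559 to 753 CPM) and next in replicate 2 (460.4 to 530.1 CPM). Replicate 2 also had the largest macrophage share in the tagged sort of every intracardiac tissue. What the replicate numbers share is not given in the sources used here, and the cause was not tested.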
